A study of Mus musculus with 9 samples.

Results

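The genes described here drive the cell cycle and copy the genome, and were measured in day 10 dendritic cells, which take up antigens and present them to T cells. The members were taken by gene symbol from a list of 49 genes, which was chosen with earlier results of these data known. A probe set, the group of short probes that reads 1 transcript on an Affymetrix array, was taken where the platform's annotation gave it a single symbol on that list. This found 45 genes on 59 of the 12488 probe sets of the array design used for experiments 2 and 3. On the design used for experiment 1 it found 44 genes on 53 of 12654 probe sets, all but Ccnd3 of the same 45. Bub1b, Ccnb1 and Pole had no such probe set, and Tyms was listed only on 2 probe sets that also carry the symbol of a pseudogene, so these 4 were not measured here.

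The study compared 3 groups with 3 arrays each: wild-type cells labelled B6, cells labelled CIITA-/- (CIITA switches on MHC class II transcription), and cells labelled IAb-/- (IAb is a class II molecule of the B6 strain). The titles number the arrays as experiments 1, 2 and 3, and 1 CIITA-/- array without a number was taken as experiment 2, since its group lacked no other number. The labels give no other allele, strain, age, agent or culture method, and do not say whether arrays came from separate mice, so the spread behind each p-value is that between arrays and may be technical. Values are deposited intensity values on a linear scale in arbitrary units, 1 per probe set and array, and can lie below 0. Experiments 2 and 3 (6 arrays) and experiment 1 (3 arrays) are separate tables with separate scaling, so levels are compared only within a table.

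As background, a cell enters the cycle when D-type cyclins with the kinases Cdk4 and Cdk6, and then cyclin E with Cdk2, release the E2F factors that switch on genes for DNA synthesis. The Mcm helicase is loaded on replication origins, opens the DNA and is followed by polymerases on the sliding clamp Pcna. Cyclin A and B with Cdk1 then start mitosis, in which spindle checkpoint proteins and ubiquitin ligases time the separation of chromosomes. Many of these transcripts are scarce in resting cells. Dendritic cells are known to divide as precursors and to leave the cycle as they mature.

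The identity of the cells was read from marker genes. All 12 dendritic cell markers on the 6-array design, among them Itgax, Flt3, Cd86 and Ccr7, were above background in every group, as were 10 of 12 in experiment 1. On the arrays of experiments 2 and 3, 0 of 7 myeloid progenitor markers, 0 of 6 T cell, 1 of 5 B cell (Blnk), 1 of 6 mast cell (Mcpt1), 1 of 5 erythroid (Klf1), 3 of 10 macrophage (Cd14, Cd68, Csf1r) and 3 of 9 neutrophil markers (Csf3r, Cxcr2, Lcn2) were. In experiment 1, 4 macrophage (also Mrc1) and 2 neutrophil markers (not Csf3r) were above background on all 3 arrays. Summed over the 9 neutrophil markers, the level was 11806 to 13008 in B6, 14721 to 16248 in CIITA-/- and 12585 to 15068 in IAb-/-, and in experiment 1 it was 12644, 17773 and 19648. The CIITA-/- arrays were thus above B6 in each experiment, and the part of this in the members' values was not tested. The 10 macrophage markers summed to 14712 to 20648 over the 6 arrays, with overlapping groups, and to 65181 in B6, 59324 in CIITA-/- and 55439 in IAb-/- in experiment 1, on that table's own scale. On the arrays labelled IAb-/- the bright end differed: a spike-in control, Cre, read 99616 in experiment 2 and 58224 in experiment 3, against 71464 to 79408 on the other 4 arrays of that table. In bulk RNA, fewer cycling cells and less RNA per cycling cell cannot be told apart.

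Most members were too dim to be read with certainty. The files hold no detection call, so a noise limit was taken from the values below 0: the size that 95% of them do not exceed, which is 1701 in the 6-array table and 2203 in the 3-array table. A gene is called above background in a group when its brightest probe set exceeds the limit on all arrays of the group, and within background when it lies below on all arrays of the table. Of the 45 members 8 were above background in every group of the 6-array table, 3 in some group only, 5 on some arrays but on all arrays of no group, and 29 were within background. By group, 9 members were above background in B6, 11 in CIITA-/- and 9 in IAb-/-. In B6 this is 20% of the members against 39.1% of all 8251 named genes, in CIITA-/- 24.4% against 38.5% and in IAb-/- 20% against 38.3%. Of the single probe sets 69.5% of the members' and 60.1% of all were below the limit on all 6 arrays.

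Detection differed between roles. Of the 7 cyclins and kinases of the first gap phase, 5 were above background in at least 1 group: Ccnd2 and Cdk4 in all 3, Cdk2, Ccnd3 and Ccne1 in some. Of the 8 spindle, checkpoint and ubiquitin genes on the array 0 were, and 7 (Bub1, Mad2l1, Chek1, Cdc20, Ube2c, Birc5 and Kif11) were within background. Among the 7 mitotic cyclin and kinase genes Ccnb2 was above in every group, Plk1, a kinase of mitotic entry, exceeded the limit on 1 CIITA-/- array (1703, range 880 to 1703), and Cdk1, Ccna2, Cks2, Aurka and Aurkb were within background. The proliferation markers most used in tissue, Mki67 and Top2a, were within background in both tables, as was Nasp, a histone chaperone (at most 319 in the 6-array table and 593 in experiment 1).

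**Figure D1:**
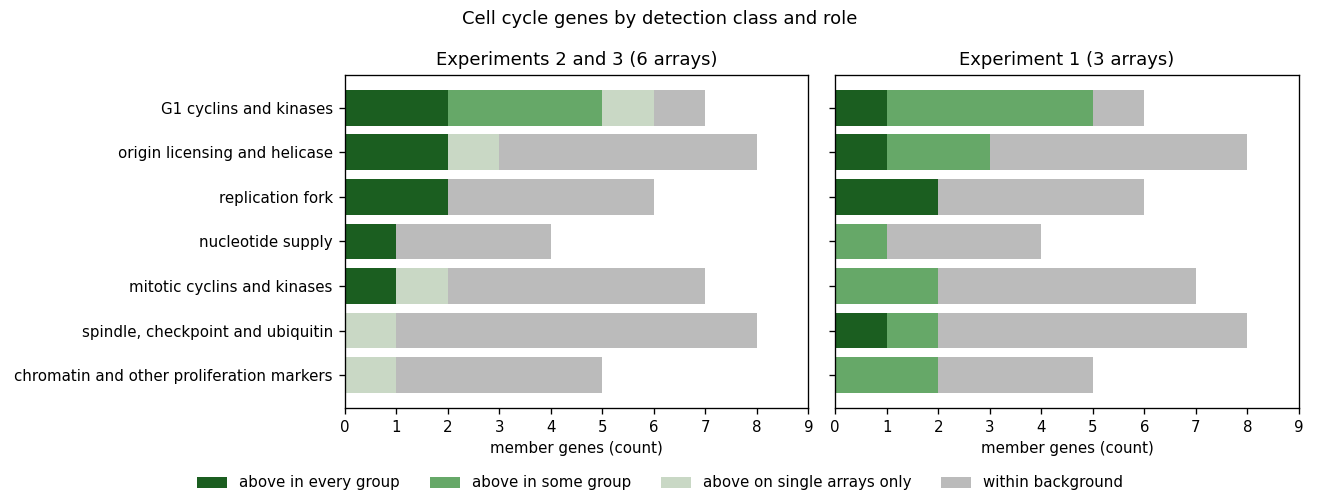
Number of member genes (horizontal axis, count) in each detection class by role, for the 6 arrays of experiments 2 and 3 (left) and the 3 arrays of experiment 1 (right), each gene by its brightest probe set. In the left panel 5 of 7 genes of the top row are above background in at least 1 group, against 0 of 8 in the spindle and checkpoint row.

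Among the cyclins and kinases of the first gap phase, Ccnd2, a D-type cyclin that activates Cdk4, was bright on every array. Its B6 arrays read 39624 (experiment 2) and 34667 (experiment 3), its CIITA-/- arrays 37083 and 36331, and its IAb-/- arrays 37947 and 32416, in that order here and in all values that follow. The groups overlap, and the log2 difference from B6 was -0.01 for CIITA-/- (SE 0.16, 95% interval -0.44 to 0.41) and -0.08 for IAb-/- (-0.50 to 0.34). In experiment 1 the same probe set gave 11186 in B6, 19878 in CIITA-/- and 26142 in IAb-/-. The higher level of both mutant arrays there, log2 0.83 and 1.22, was not seen in the other experiments.

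Cdk4, the kinase that D-type cyclins activate, gave 7339 and 7287 in B6, 7662 and 9865 in CIITA-/- and 8580 and 8659 in IAb-/-. Both mutant groups lay above B6 without overlap, by log2 0.25 (SE 0.18) and 0.24 (SE 0.18), and neither passed (limma, adjusted p = 0.93 and 1). Its other probe set gave log2 differences of 0.11 and 0.31 in the same fit. In experiment 1 that other probe set gave 2902 in B6, 3192 in CIITA-/- and 2063 in IAb-/-, so the IAb-/- array lay lower there.

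Cdk2, the partner of cyclin E, gave 2340 and 2549 in B6, 2391 and 2792 in CIITA-/-, and 2203 and 1502 in IAb-/-, where the array of experiment 3 fell below the noise limit. The IAb-/- arrays did not overlap B6 (log2 -0.43, SE 0.24, limma adjusted p = 1), and in experiment 1 the IAb-/- array was lower too, at 1557 against 2347. Ccnd3, a D-type cyclin of blood cells, gave 3890 and 1500 in B6, 3797 and 3369 in CIITA-/- and 4655 and 2300 in IAb-/-. Its spread between experiments exceeded any group difference: the B6 array of experiment 3 was under the limit, and the intervals ran from -0.94 to 2.08 for CIITA-/- and from -1.07 to 1.95 for IAb-/-.

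Ccne1, cyclin E1, varied widely between arrays of a group. It gave -1362 and 3163 in B6, 2483 and 2206 in CIITA-/- and -1820 and 2198 in IAb-/-. In experiment 1 it gave -1397 in B6, 4042 in CIITA-/- and 524 in IAb-/-. The CIITA-/- arrays were above the limit in all 3 experiments, while the B6 arrays were so only in experiment 3. With the floor used for testing the log2 difference of CIITA-/- from B6 was 1.90 with an SE of 2.05 (limma, adjusted p = 0.93), and within experiment 3 it was -0.52. Ccnd1, the D-type cyclin of many tissues, was above the limit on 2 of 6 arrays (range 996 to 2042), and Ccne2, cyclin E2, reached at most 176 in the 6-array table and 417 in experiment 1, both within background.

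Among the replication genes, Pcna, the sliding clamp, gave 9315 and 10025 in B6, 8550 and 10574 in CIITA-/- and 8824 and 10898 in IAb-/-, and in experiment 1 it gave 14744, 14847 and 13364. The 3 groups overlap in the 6-array table. Its log2 difference from B6 was -0.02 in CIITA-/- (95% interval -0.53 to 0.49) and 0.02 in IAb-/- (-0.49 to 0.53). Fen1, the nuclease that trims Okazaki fragments, was close to the limit, at 2088 and 2565 in B6, 2539 and 1740 in CIITA-/- and 1736 and 2147 in IAb-/-. The other fork genes were within background: Rfc4, a clamp loader subunit, Prim1, the primase, Pola1, its polymerase partner, and Lig1, the ligase.

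Of the 6 Mcm helicase subunits, Mcm3 and Mcm5 were above background. Mcm3 gave 4082 and 4415 in B6, 4102 and 4530 in CIITA-/- and 4239 and 4628 in IAb-/-, with log2 differences from B6 of 0.02 (SE 0.15) and 0.06 (SE 0.15). Mcm5 gave 9588 and 6009 in B6, 7910 and 10381 in CIITA-/- and 7722 and 9990 in IAb-/-. The spread within B6 was as wide as any group difference, and the intervals for Mcm5 ran from -0.56 to 1.07 and from -0.60 to 1.02. Both readings come from probe sets whose names carry a suffix (s for Mcm3, r for Mcm5) that Affymetrix gives where probes can match several transcripts or where design rules were relaxed. The plain probe sets of both genes were dimmer and read otherwise: that of Mcm5 gave 1807 and 1946 in B6, 1686 and 1481 in CIITA-/- and 1274 and 895 in IAb-/-, lower in both mutant groups without overlap (log2 -0.25 and -0.81, limma adjusted p = 0.93 and 0.91). In experiment 1 this probe set gave 4166, 2662 and 3132, again highest in B6.

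Tk1, the thymidine kinase that salvages thymidine for DNA synthesis, gave 2182 and 1920 in B6, 2466 and 2357 in CIITA-/- and 2907 and 1873 in IAb-/-. In experiment 1 it gave -2065, -1011 and 3275, so the same probe set was far below 0 on the B6 and CIITA-/- arrays of that table. The other nucleotide supply genes, Rrm1 and Rrm2 (subunits of ribonucleotide reductase) and Dut (the dUTPase), were within background in both tables. Ccnb2, a mitotic B-type cyclin, stood just above the limit, at 1800 and 1766 in B6, 1733 and 2191 in CIITA-/- and 2048 and 1710 in IAb-/-. Lowering or raising the limit would move such genes: at the 90th percentile 15 members were above background in B6, and at the 99th percentile 5.

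**Figure D2:**
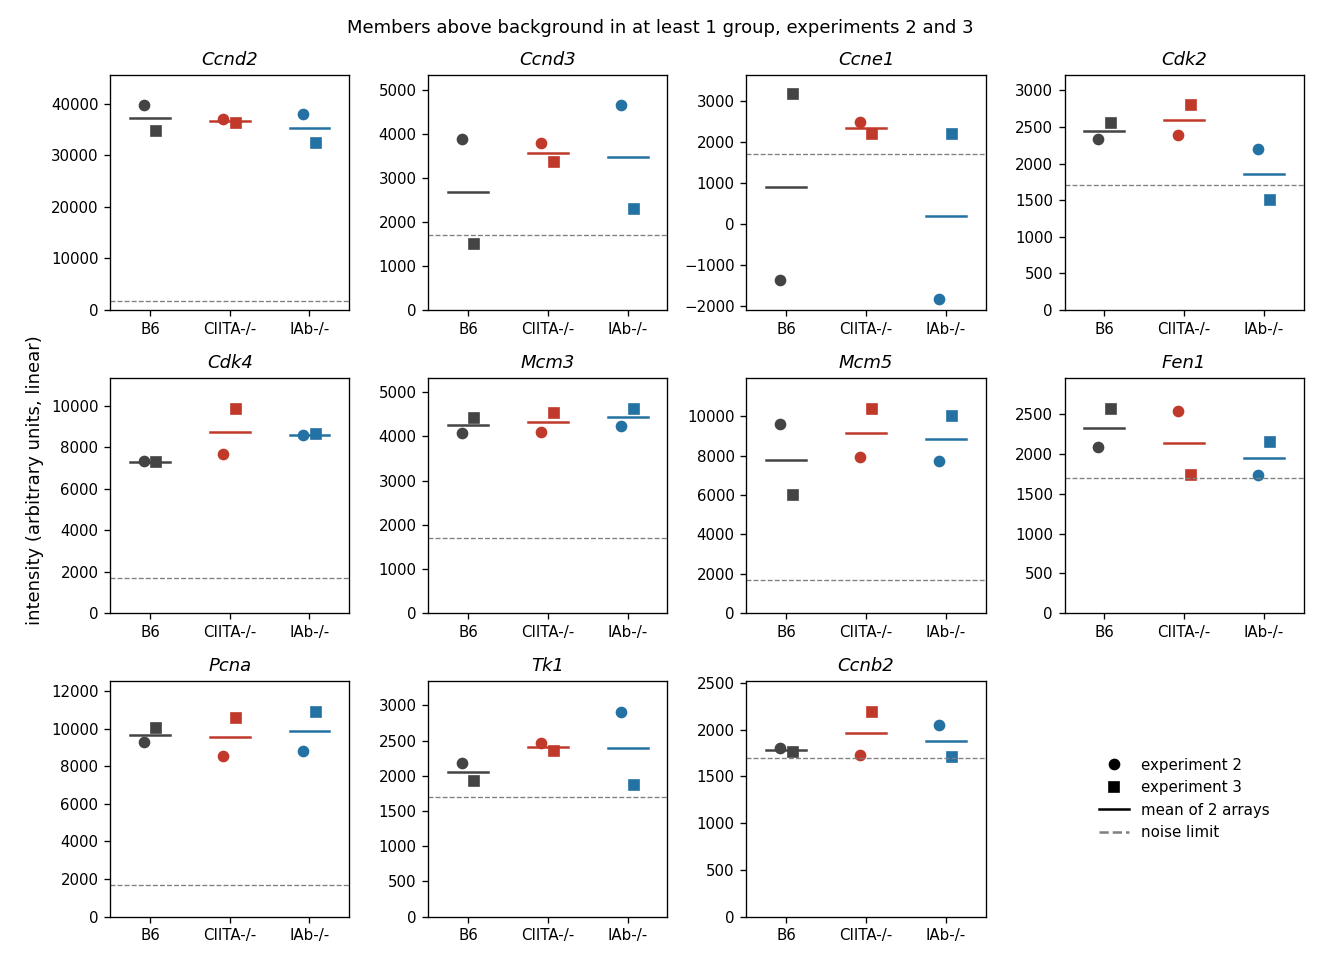
Intensity (vertical axes, arbitrary units, linear) of the 11 members above background in at least 1 group, on the arrays of experiments 2 (circles) and 3 (squares), with the mean of 2 arrays as a bar and the noise limit of 1701 dashed. Pcna, Mcm3 and Ccnd2 lie at like levels in the 3 groups, while Ccne1 falls below 0 on the B6 and IAb-/- arrays of experiment 2.

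The members above background were partly others in experiment 1, which has its own array design and limit. There 14 of 44 members were above background on the B6 array, 7 on the CIITA-/- array and 13 on the IAb-/- array. These are 31.8%, 15.9% and 29.5% of the members, against 36.5%, 36.1% and 37% of all 8220 named genes. Ccnb2, Cenpa, Cks2, Hmgb2, Mcm4 and Stmn1 were above the limit in B6 and IAb-/- but not in CIITA-/-. Most of them were close to it: the CIITA-/- array read 2033 for Cenpa, the centromeric histone, 2058 for Cks2, a subunit of cyclin-dependent kinases, 2077 for Hmgb2, a chromatin protein, and 2059 for Stmn1, which destabilises microtubules, all against the limit of 2203. Mad2l1, a spindle checkpoint protein, was above the limit on all 3 arrays, at 2242, 2371 and 2749.

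Many promoters of the members hold sequence features that are known from cell cycle genes and that played no part in choosing them. RefSeq promoter windows (build GRCm38.p6, 250 bases before to 50 after each annotated start) were found for 41 of the 49 genes, in 46 windows. Motifs searched on both strands were E2F (TTCGCGC or TTGGCGC), the cell cycle homology region CHR (TTTGAA) and the CCAAT box (CCAAT). The reverse complement of TTGGCGC, when followed by T, overlaps a CCAAT box, while that of TTCGCGC does not. An E2F match was in 11 of 46 member windows (23.9%, exact 95% binomial interval 12.6 to 38.8) and in 3.89% of all 32851 windows. A CHR match was in 34.8% against 17.9%, and a CCAAT box in 65.2% against 37.4%. The interval takes windows as independent, though some genes have several. By gene, 10 of 41 had an E2F match, 16 a CHR match and 29 a CCAAT box, and 10 had none of these. The member windows were richer in G and C, at a median of 58.3% against 52.7%, which also bears on how often such letters occur. By role, an E2F match was found in 4 of 7 licensing and helicase genes and 3 of 6 fork genes, and a CHR match in 4 of 6 mitotic cyclin and kinase genes and 5 of 9 spindle and checkpoint genes. Neither an E2F nor a CHR match was found in the 5 nucleotide supply genes or in the 4 genes of the first gap phase that have a window.

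Stretches of 220 bases before the start are printed for 4 members that show these combinations, with motif matches in capitals. Mcm5 (chr8:75109289-75109508, plus strand) carries E2F matches and CCAAT boxes and was above background. Cdk1 (chr10:69352913-69353132, minus strand) carries all 3 motifs and was within background. Ccnb2 (chr9:70421555-70421774, minus strand) carries CCAAT boxes and a CHR match and stood just above the limit, and Mki67 (chr7:135716380-135716599, minus strand) carries all 3 and was within background. A match describes letters and not a bound site.
Mcm5: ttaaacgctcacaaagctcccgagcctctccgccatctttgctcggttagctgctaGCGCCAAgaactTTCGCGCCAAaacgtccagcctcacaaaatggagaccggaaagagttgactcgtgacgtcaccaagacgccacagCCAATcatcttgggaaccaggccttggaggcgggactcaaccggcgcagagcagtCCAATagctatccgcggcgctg
Cdk1: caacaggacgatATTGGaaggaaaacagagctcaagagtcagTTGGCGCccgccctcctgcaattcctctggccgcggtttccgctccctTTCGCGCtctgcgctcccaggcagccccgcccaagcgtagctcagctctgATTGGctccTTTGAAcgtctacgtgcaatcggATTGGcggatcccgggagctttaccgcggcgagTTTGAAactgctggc
Ccnb2: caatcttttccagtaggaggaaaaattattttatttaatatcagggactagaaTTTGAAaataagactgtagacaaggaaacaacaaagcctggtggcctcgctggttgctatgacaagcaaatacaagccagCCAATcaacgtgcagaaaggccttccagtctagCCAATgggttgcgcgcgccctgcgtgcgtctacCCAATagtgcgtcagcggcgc
Mki67: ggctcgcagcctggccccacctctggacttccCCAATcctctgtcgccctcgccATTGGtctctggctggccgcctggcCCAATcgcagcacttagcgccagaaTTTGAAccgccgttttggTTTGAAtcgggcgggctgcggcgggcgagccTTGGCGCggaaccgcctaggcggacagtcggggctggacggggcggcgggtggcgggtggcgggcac

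The first comparison sets the arrays labelled CIITA-/- against B6. No member passed the test: 0 of the 45 member probe sets bright enough to be tested passed an adjusted p of 0.05 (limma, over all 9312 probe sets tested), where 0.0966% of all tested did. At an unadjusted p under 0.05 (limma) 4 of 45 members stood, against 5.86% of all. The tested probe sets hold 38 of the 45 genes, while Ccne2, Top2a, Aurkb, Ccna2, Rrm1, Lig1 and Bub1 lay at or near the floor of 123.5 and were not tested. The median log2 difference of the 38 genes was 0.05, with 52.6% higher by value, against 0.01 and 52.2% of all 6718 genes. Within experiments 1, 2 and 3 the median over the member genes was -0.19, 0 and 0.10. Over all genes it was 0, 0.01 and 0. Higher by value were 12 of 31, 18 of 38 and 24 of 38 member genes. Values of the groups did not overlap for 13 of 45 member probe sets (28.9%), against 38.8% of all tested.

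The lowest p in this comparison belonged to Mcm4, a subunit of the replicative helicase. It gave 744 and 693 on the B6 arrays, 302 and 412 on the CIITA-/- arrays and 704 and 697 on the IAb-/- arrays, all under the limit of 1701. Experiment 1 gave 2476 in B6, 1249 in CIITA-/- and 2495 in IAb-/-. The CIITA-/- array was thus the lowest of its experiment each time, with log2 differences from B6 of -0.99, -1.30 and -0.75 in experiments 1, 2 and 3. In experiment 1 the B6 and IAb-/- arrays exceeded the limit, by 1.12-fold and 1.13-fold, and the CIITA-/- array did not. These are single arrays whose bright readings carry noise too, so no lower bound on the difference follows. In the fit over experiments 2 and 3 the log2 difference was -1.02 (SE 0.20, 95% interval -1.54 to -0.51, limma unadjusted p = 0.0042, adjusted p = 0.50).

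The other members of low p did not keep their direction or were dim throughout. Cdk1, the kinase that starts mitosis, gave 210 and 186 in B6, 22 and -1 in CIITA-/- and 399 and 312 in IAb-/-, so the groups did not overlap (CIITA-/- against B6 log2 -0.68, SE 0.18, limma adjusted p = 0.71). Both CIITA-/- values lie under the floor of 123.5 used for testing, which sets that group's level and its lack of spread in each fit that holds it, so the log2 difference, SE and p of Cdk1 rest on the floor. In experiment 1 the order was turned, at 288 in B6, 504 in CIITA-/- and -54 in IAb-/-. Rfc4 gave 614 and 920 in B6 and 511 and 316 in CIITA-/- (log2 -0.90, SE 0.36, limma adjusted p = 0.86), and was 1435 and 1309 in experiment 1. All of these values lie under the limits.

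On the higher side stood Mki67, the antigen that marks cycling cells, at 684 and 765 in CIITA-/- against 448 and 436 in B6 (log2 0.71, SE 0.21, limma adjusted p = 0.78). This Mki67 probe set carries the suffix r described for Mcm5, as do those of Hmgb2 and, in the 6-array table, Ube2c. The other Mki67 probe set, the one also present in experiment 1, gave no value above 27 in the 6-array table. Rrm2 gave 483 and 409 against 312 and 282 (log2 0.58, SE 0.20, limma adjusted p = 0.83), but was lower in experiment 1, at 938 against 1151. Cdc20, which activates the ubiquitin ligase of anaphase, gave 1044 and 1028 against 866 and 866 (log2 0.26, SE 0.15, limma adjusted p = 0.93), and was higher in experiment 1 too, at 1401 against 1084. Each of these is within background.

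The 3 experiments can be set beside each other for the 38 tested member probe sets that both tables hold under the same name and symbol (48 are held by both, tested or not). Lower in CIITA-/- than in B6 in all 3 were 7 of 38 (18.4%), against 12.7% of all 6759 tested probe sets held by both tables, and higher were 4 of 38 (10.5%), against 13.2%. The 7 are those of Cks2, Rfc4, Mcm2 and Mcm4, the plain probe sets of Mcm3 and Mcm5, and the dimmer probe set of Ccnd1. The brighter Ccnd1 probe set gave log2 differences of -0.32, -0.65 and 0.42 in experiments 1, 2 and 3 and is not among them. For 6 of the 7, all arrays of both groups in experiments 2 and 3 were within background. Mcm2 gave 878 and 679 in B6 and 458 and 603 in CIITA-/-, and the plain probe set of Mcm3 gave 1600 and 1529 against 1325 and 1175. The subunit Mcm7 went the other way (1355 and 1301 against 1389 and 1568), and Mcm6 was at or near the floor. The bright Mcm3 and Mcm5 probe sets, which are not on the design of experiment 1, had log2 differences of 0.02 and 0.26.

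**Figure D3:**
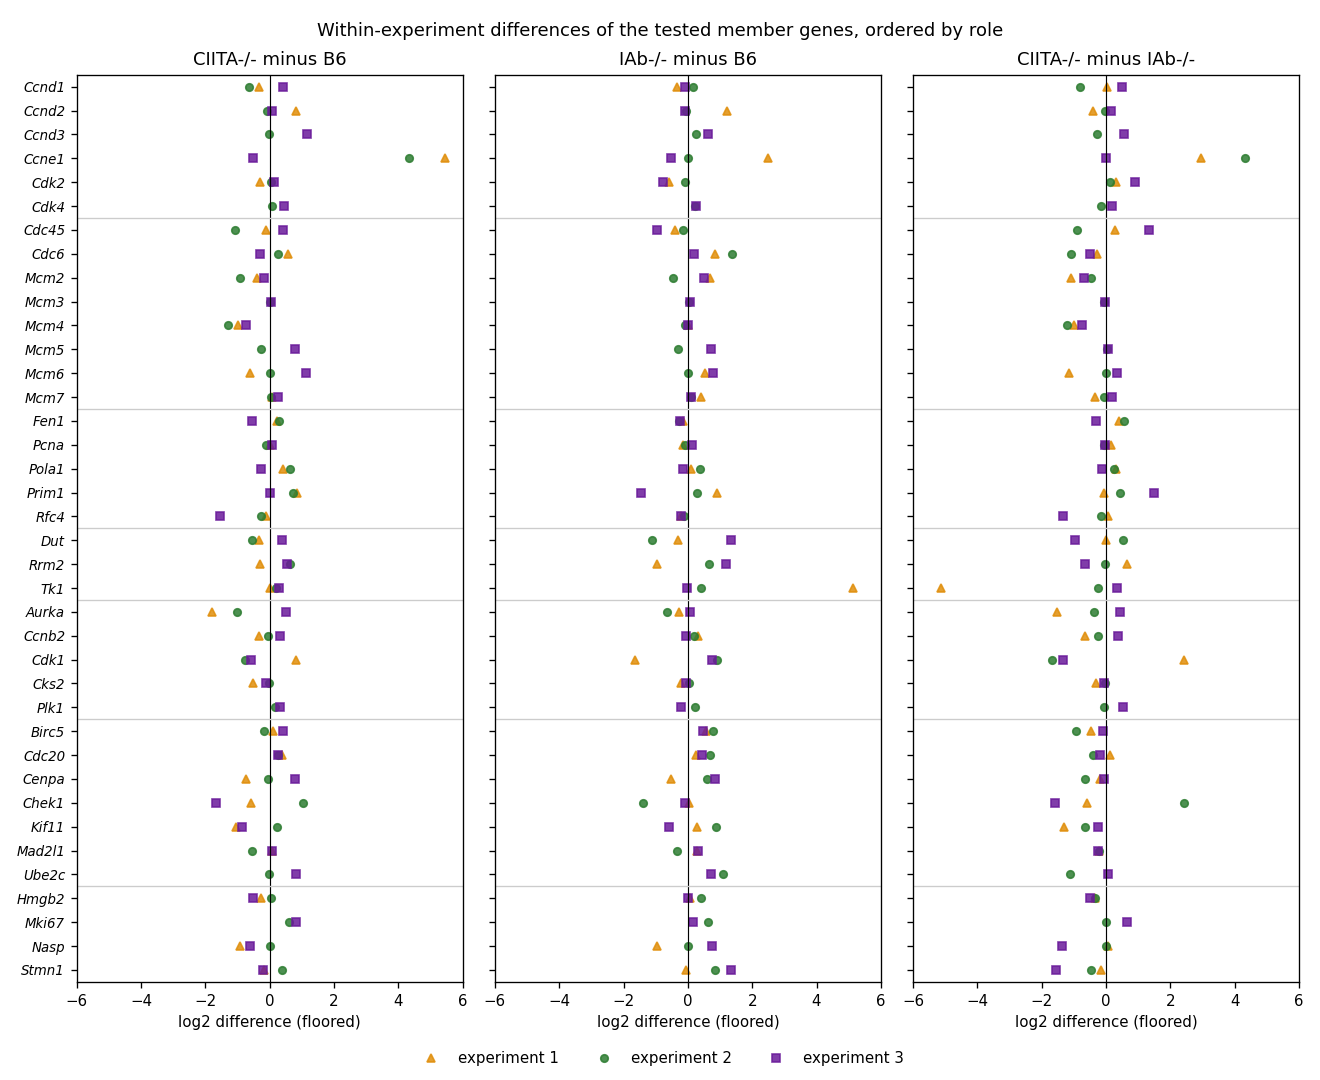
Log2 differences on the floored scale (horizontal axes) within experiment 1 (triangles), 2 (circles) and 3 (squares) for the 38 member genes tested, ordered by role, in the 3 comparisons. Mcm4 lies left of 0 in all experiments in both comparisons of CIITA-/-, while Ccne1 and Tk1 have differences above 4 in size that are not repeated in every experiment.

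The second comparison sets the arrays labelled IAb-/- against B6. Again 0 of 45 member probe sets passed (limma, adjusted p of 0.05), where 0.0107% of all tested did, and 4 of 45 had an unadjusted p under 0.05 (limma), against 4.31% of all. The median log2 difference of the 38 genes was 0.10, with 68.4% higher by value, against 0.01 and 51.6% of all genes. Over the 15 member genes with an array above the limit the median was 0.06, against 0.01 for all such genes. Groups did not overlap for 16 of 45 member probe sets (35.6%), against 32.3% of all. Within experiments the median over the member genes was 0.02 in experiment 1, 0.13 in experiment 2, where the IAb-/- spike read 99616, and 0.08 in experiment 3. The part of array brightness in these values was not tested.

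By brightest probe set, the members of lowest p were dim. The plain Mcm5 probe set, above the limit on both B6 arrays (1807 and 1946), had a p just under that of Cdc20. It was lower in IAb-/- by log2 -0.81 (SE 0.22, limma unadjusted p = 0.016, adjusted p = 0.91), and lower in all 3 experiments. The brighter Mcm5 probe set gave a log2 difference of 0.21 (SE 0.31). Cdk1 was higher in IAb-/- by log2 0.83 (SE 0.18, limma unadjusted p = 0.0070, adjusted p = 0.72) and lower in experiment 1, by -1.63. Rrm2 gave 490 and 640 in IAb-/- against 312 and 282 in B6 (log2 0.92, SE 0.20, limma adjusted p = 0.73), and 592 against 1151 in experiment 1, the other way. Cdc20 gave 1389 and 1165 against 866 and 866 (log2 0.55, SE 0.15, limma adjusted p = 0.91), and 1294 against 1084 in experiment 1, the same way. On the lower side, beside Cdk2 and the plain Mcm5 probe set, stood Prim1 at 460 and 297 against 376 and 823 (log2 -0.59, SE 0.46) and Fen1 (log2 -0.26, SE 0.26), both with a limma adjusted p of 1 and overlapping groups. Prim1 was lower only in experiment 3 (-1.47), and higher in experiments 1 (0.91) and 2 (0.29).

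Higher in IAb-/- than in B6 in all 3 experiments were 4 of 38 member probe sets (10.5%), against 12.6% of all, and lower were 6 (15.8%), against 12.4%. The 4 are Birc5 (survivin, a subunit of the chromosomal passenger complex), Cdc20, Cdc6 and Mcm7, all within background in experiments 2 and 3. Birc5 gave 763 and 521 in IAb-/- against 448 and 374 in B6, and 1003 against 685 in experiment 1. Cdc6, which loads the Mcm helicase on origins, gave 379 and 244 against 148 and 212, and 920 against 512 in experiment 1. The 6 are Cdc45, Cdk2, Fen1, Rfc4 and the plain probe sets of Mcm3 and Mcm5.

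**Figure D4:**
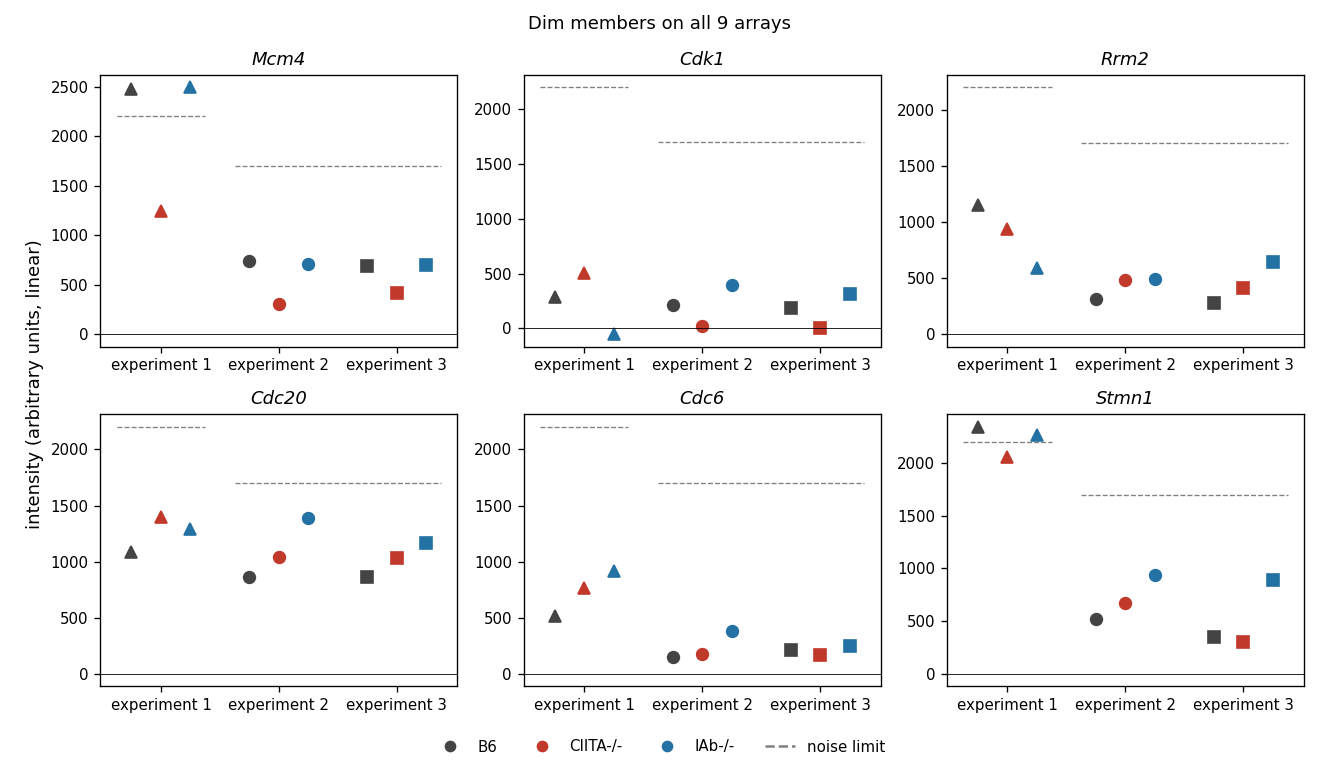
Intensity (vertical axes, arbitrary units, linear) of 6 dim members on all 9 arrays, by experiment and group, with the noise limit of each table dashed (2203 for experiment 1, 1701 for the others). Mcm4 is lowest on the CIITA-/- array in every experiment, and the order of the groups for Cdk1 is turned in experiment 1.

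The last comparison sets CIITA-/- against IAb-/-. Here 0 of 45 member probe sets passed (limma, adjusted p of 0.05), where 0.0215% of all did, and 3 of 45 had an unadjusted p under 0.05 (limma), against 4.54% of all. The median log2 difference was -0.04 over the 38 genes, against 0 over all genes, and groups did not overlap for 15 of 45 probe sets (33.3%), against 25.9% of all. Cdk1 was lower in CIITA-/- by log2 -1.52 (SE 0.18, limma unadjusted p = 0.00055, adjusted p = 0.30), with the CIITA-/- level again set by the floor, but higher in experiment 1, by 2.44. With the experiment as a block over all 9 arrays the Cdk1 difference was -0.20 here, -0.19 for CIITA-/- against B6 and 0.01 for IAb-/- against B6. Mcm4 was lower by -0.99 (SE 0.20, limma adjusted p = 0.47), and by -1 in experiment 1. Cdc6 was lower by -0.81 (SE 0.30, limma adjusted p = 1), and by -0.27 in experiment 1. On the higher side, Cdk2 had a log2 difference of 0.51 (SE 0.24), Prim1 one of 0.96 (SE 0.46) and Mki67 one of 0.32 (SE 0.21), each with a limma adjusted p of 1.

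In this comparison the experiments lined up on the lower side more often among the members than among all probe sets. Lower in CIITA-/- in all 3 experiments were 11 of 38 member probe sets (28.9%), against 12% of all, and higher were 2 of 38 (5.26%), against 10.5%. The 11 belong to several phases of the cycle: Ccnd1, Cdc6, Mcm2, Mcm4, Birc5, Cenpa, Cks2, Hmgb2, Kif11, Mad2l1 and Stmn1. Ccnd1 enters by its dimmer probe set (-0.74, -0.19 and -0.14), while the brighter one gave 0.03, -0.81 and 0.50. Of these, 9 lay within background on all CIITA-/- and IAb-/- arrays of experiments 2 and 3, the exceptions being Cenpa, above the limit on 1 array of each group, and Hmgb2, above it on 1 IAb-/- array. Stmn1 gave 676 and 304 in CIITA-/- and 934 and 890 in IAb-/-, and 2059 and 2268 in experiment 1. Hmgb2 gave 1431 and 1017 against 1812 and 1452, and 2077 against 2638 in experiment 1. Kif11, the motor that builds the bipolar spindle, gave 167 and -198 against 260 and 148, and 238 against 588. Such a count has no test here, and the comparison shares its CIITA-/- arrays with the first and its IAb-/- arrays with the second. Of the 15 member genes with an array above the limit, 10 were higher in CIITA-/- by value, with a median log2 difference of 0.05. Within experiments, 12 of 31 member genes were higher in CIITA-/- in experiment 1 and 17 of 38 in experiment 3. In experiment 2, where the IAb-/- spike read 99616, 8 of 38 were. The part of array brightness in these values was not tested.

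Other cell cycle genes, taken from lists that hold no member, gave no call either. Of 10 CDK inhibitors and pocket proteins on the array, 4 were above background in every group. Cdkn1a (p21), which blocks cyclin-dependent kinases, gave 32126 and 34551 in B6, 37087 and 38188 in CIITA-/- and 44992 and 39752 in IAb-/-. Both mutant groups lay above B6 without overlap (log2 0.18 and 0.34, SE 0.15, limma adjusted p = 0.93 and 1), and they did in experiment 1, at 11740 in B6, 24747 in CIITA-/- and 21097 in IAb-/-. Cdkn2b, an inhibitor of Cdk4 and Cdk6, gave 6000 and 7056 in B6, 5835 and 6943 in CIITA-/- and 5270 and 6545 in IAb-/-, with overlapping groups.

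In the list of E2F, Myc, Myb and p53 genes 8 of 16 on the array were above background in every group. The brightest were Btg1, a brake on growth, at 41031 ± 84 in B6, 38037 ± 40 in CIITA-/- and 36583 ± 2348 in IAb-/- (SD, n = 2), and Gadd45a, a stress-induced growth arrest gene, at 12907 ± 190, 14159 ± 913 and 15087 ± 1517. Of the other replication genes 5 of 27 were above in every group, led by Cdt1, which loads the Mcm helicase with Cdc6 (9585 ± 2044 in B6, 9473 ± 2197 in CIITA-/-, 9451 ± 726 in IAb-/-), and Rpa1, which coats single-stranded DNA (5809 ± 391, 6353 ± 467, 4819 ± 124). In experiment 1 Btg1 had the reverse order, at 36831 in B6, 41438 in CIITA-/- and 43200 in IAb-/-. Its log2 differences from B6 in the fit were -0.11 and -0.17 (SE 0.14). Rpa1 gave 10709, 10591 and 10619 in experiment 1, and Cdt1 9617, 8762 and 9826. Gadd45a gave 7888, 11222 and 11356 there, again lowest in B6. Of the other mitosis genes 5 of 29 were above in every group. Bub3, a checkpoint protein, gave 15480 ± 946, 14872 ± 927 and 15376 ± 2459. Pttg1, securin, gave 3986 and 4707 in CIITA-/- against 6646 and 7313 in B6 (log2 -0.69, SE 0.19, limma adjusted p = 0.74), but 8020 against 6192 in experiment 1.

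Over these 4 lists 0 of 71 tested genes passed in any comparison (limma, adjusted p of 0.05). Of all 9312 probe sets tested 0.0966%, 0.0107% and 0.0215% did in CIITA-/- against B6, IAb-/- against B6 and CIITA-/- against IAb-/-. At an unadjusted p under 0.05 (limma) 4, 4 and 1 of the 71 stood in these comparisons, against 5.86%, 4.31% and 4.54% of all probe sets. Their medians ran from -0.10 to 0.09 for CIITA-/- against B6, from -0.11 to 0.10 for IAb-/- against B6 and from -0.13 to 0.09 for CIITA-/- against IAb-/-.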

How the data were processed

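The authors deposited intensity values, linear judging by their range. The step from scan to value is not stated there or in the labels, which point to a published protocol for RNA preparation, labelling and hybridization. Members and lists were chosen with earlier results of these data known. Symbols come from the platform's annotation; 66 control probe sets per table were left out. In the 6-array table log2 was taken after raising values below the 30th percentile (123.5) to it. Tested were the 9312 of 12422 probe sets that exceeded this floor on 2 arrays or more. With limma 3.58.1 (R 4.3.3), 1 linear model (lmFit, eBayes) took the 3 groups with 2 arrays each (3 residual degrees of freedom), with Benjamini-Hochberg adjustment and a threshold of 0.05, and was tested on simulated data. On this floored scale a change that reaches below the floor is cut short. Values of dim genes that cross the floor can also give large differences. For Ccne1 in experiment 1 the log2 difference of CIITA-/- from B6 was 5.44. Experiment 1 was floored at 93.2 and not tested. A gene is represented by its brightest probe set. Named were every member by role, those above background, and 3 per direction of smallest p in each comparison (brightest probe sets); other genes were chosen after their values were seen. The number of arrays limits the precision. Alternatives covered floor, scaling, filter, design, variance model and arrays.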

Additional observations from a re-analysis of the deposited data

How the results depend on the processing

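In the alternative fits with 2 arrays or more in each group, 0 member probe sets passed in any comparison (limma, adjusted p of 0.05). Calls among all probe sets were few there too, 0 to 14 for CIITA-/- against B6 and 0 to 5 for IAb-/- against B6. The 18 named differences kept their direction in the 252 values obtained from the 16 alternatives. Dim genes dropped out under the higher floors and the noise filter, and Mki67 under the 9-array block. Many of the 252 values could not turn. The 6-array block, the 2-group fit, the intensity trend and both changes of filter leave a log2 difference as it was. So does leaving out an array of the group not compared. The size of the named differences did not always hold. With the 9-array block Cdk1 was -0.19, 0.01 and -0.20 (CIITA-/- against B6, IAb-/- against B6, CIITA-/- against IAb-/-), Rrm2 0.29 against B6 in both mutants and Prim1 -0.09 in IAb-/- against B6 (-0.02 without B6 replicate 3). Without IAb-/- replicate 3 Cdk2 was -0.15 (against B6) and 0.23 (CIITA-/- against IAb-/-), Mki67 0.08 (CIITA-/- against IAb-/-) and Fen1 -0.42. Without IAb-/- replicate 2 Fen1 was -0.11 and Cdc6 -0.49, and without CIITA-/- replicate 3 Rfc4 was -0.56. Medians moved around 0. For CIITA-/- against B6 (0.05) the median was 0.13 with a floor at the 40th percentile (chosen after seeing the data, since the 20th lies below 0 and could not be run), with a filter at the noise limit and over members above it only, -0.04 with the experiment as a block over all 9 arrays, and -0.07 (without B6 replicate 2) to 0.17 (without CIITA-/- replicate 2) with 1 array left out. For IAb-/- against B6 (0.10) it was 0.04 with the 40th percentile, 0.03 with the floor at the noise limit, 0.07 without a filter, 0.06 with the noise filter, 0.04 with the 9-array block, 0.07 over members above the limit, and 0.06 (without IAb-/- replicate 3) to 0.13 (without IAb-/- replicate 2). For CIITA-/- against IAb-/- (-0.04) it was 0.06 with the floor at the noise limit, 0.05 with the noise filter, -0.16 with the 9-array block, 0.06 over members above the limit, -0.19 without CIITA-/- replicate 3, -0.15 without IAb-/- replicate 2 and 0.03 without CIITA-/- replicate 2. The cause of these shifts was not tested. Members above background numbered 15 in B6 and 16 in IAb-/- with the limit at the 90th percentile, and 5, 6 and 5 in B6, CIITA-/- and IAb-/- at the 99th. In CIITA-/- the 90th percentile added only Cks2 and Mcm7 to the 11 of the main limit. That group thus had the fewest there, while it had the most at the main limit and at the 99th percentile. The 11 members lower in CIITA-/- than in IAb-/- in all 3 experiments numbered 11 after quantile normalization, 11 after scaling to bright probe sets and 9 with a floor at the 40th percentile (choices made after seeing the data). With that floor 37 member probe sets were tested instead of 45. Shares of all probe sets are not given for these settings, so the counts do not show whether the excess over all remains. The arrays share an experiment number and nothing else in the labels. Deviations of same-numbered arrays correlated at 0.048, 0.079 and 0.215 over 9312 probe sets. With that number as a replicate block over 6 arrays 0 members passed, as did 0 of all 9312 probe sets in both comparisons with B6. The medians stayed at 0.05, 0.10 and -0.04, which this block cannot change, since each group has 1 array per experiment. A member within background can hide a change that these arrays could not show.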
